A study of Arabidopsis thaliana with 6 samples.

Results

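The genes described here had higher transcript levels in both libraries labelled *sep1 sep2 sep3* (triple-labelled libraries) than in every other library of the series. They were chosen by a rule on the measured values, on the scale of CPM, the count of a gene divided by the total of its library and multiplied by 1e6. A gene was kept when its mean over the 6 libraries was at least 2 CPM and when the lower of its 2 *sep1 sep2 sep3* values was at least 1.5 times the highest of its 4 other values. Of the 17520 genes whose mean reached 2 CPM, out of 33610 in the count files, 58 met the rule, which is 0.331%. The same ratio turned downwards found 822 genes lowest in *sep1 sep2 sep3*, and turned to the other genotypes it found 179 genes highest in *sep1 sep2* and 45 highest in *sep1 sep2 sep3 SEP3*. Since the rule used the *sep1 sep2 sep3* libraries against all others, the folds between them are a description of how the genes were chosen and carry no test.

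The RNA came from Arabidopsis thaliana inflorescence meristems together with flower buds no older than stages 10 and 11, from plants raised side by side in long days. All plants carried mutations in *SEP1* and *SEP2*, so no genotype here is a wild type. The *sep1 sep2 sep3* plants carried a sep3 mutation in addition, and *sep1 sep2 sep3 SEP3* plants were triple mutants that expressed *SEP3* again, 1 library from each of 2 independent lines (called the *SEP3* lines). The promoter that drives *SEP3* in these lines is not given in the sources used here, and no source says whether the 2 libraries of a mutant came from separate plants, so that p-values measure the spread between these libraries.

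Library totals ranged from 24000063 to 31263376 counts. *SEP3* was at 130 and 133 CPM in *sep1 sep2*, 147 and 145 in the triple-labelled libraries, and 510 and 343 in the *SEP3* lines. Its transcript was thus above *sep1 sep2* in the *SEP3* lines but not below it in the triple-labelled libraries, which are therefore called by their label. *SEP1* lay between 1.96 and 5.51 CPM in all libraries and *AG*, the carpel and stamen identity gene, between 58.9 and 87.8 CPM. *SEP2* transcript, from a gene mutated in all these plants, was at 79.1 and 43.5 CPM in *sep1 sep2*, 15.3 and 11.1 CPM in the triple-labelled libraries, and 17.3 and 112.0 CPM in the *SEP3* lines. Line 1 was thus close to the triple-labelled libraries in *SEP2*, whereas line 2 was above all other libraries. The male and female organs of the buds differed strongly in their marker transcripts. All 13 markers of the tapetum and pollen wall were lowest in the triple-labelled libraries by the ratio of 1.5, with a summed level of 244 and 170 CPM there and 1729 to 3127 CPM in the other 4 libraries. For the 10 carpel and ovule markers the summed level was 68.8 and 56.2 CPM against 129 to 138 CPM, and 5 of the 7 with at least 2 CPM were lowest there by the same ratio. *INO*, an ovule marker, had no counts in either triple-labelled library, *STK* had none in one of them, and *INO* had none in *SEP3* line 2. The opposite order held for 1 of the 7, *NGA1*. It was at 21.0 and 19.9 CPM in the triple-labelled libraries and at 13.0 to 18.1 CPM in the other 4. The part of these differences in the levels of the 58 genes was not tested, and in such bulk tissue fewer cells of a type and less RNA per cell cannot be told apart.

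SEPALLATA genes encode MADS-domain transcription factors that join other MADS proteins in the complexes which give petals, stamens and carpels their identity. When their function is lost, these organs take on features of sepals, the outermost and most leaf-like organs of the flower. A sepal shares with a leaf its green tissue, a blade shaped by factors of the margin and lamina, and an epidermis with stomata, the paired guard cells around a pore that arise from a dedicated cell lineage.

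Over the 58 genes the ratio of the lower *sep1 sep2 sep3* value to the highest other value ran from 1.5 to 2.80 with a median of 1.66. Only 8 of the genes had a ratio of at least 2, and 20 had one under 1.6. The mean of the triple-labelled libraries was 1.56 to 6.33 times that of *sep1 sep2*, with a median of 2.19 against 0.989 over all genes with at least 2 CPM, and 1.62 to 6.87 times that of the *SEP3* lines, with a median of 2.14 against 0.943. Most of the genes were lowly or moderately expressed: 18 had a mean under 5 CPM, 33 lay between 5 and 50 CPM, and 7 reached 50 CPM, up to 1922 CPM. The smallest count of any of them in any library was 10. The libraries labelled *sep1 sep2 sep3* were close to each other, since the higher was 1.09 times the lower in the median and the gap exceeded 1.5-fold in 3 genes, *MSRB5*, *DFR* and AT1G52770. By annotation 54 of the genes encode proteins, 3 are pseudogenes and 1, *TAS3*, is a non-coding RNA.

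**Figure D1:**
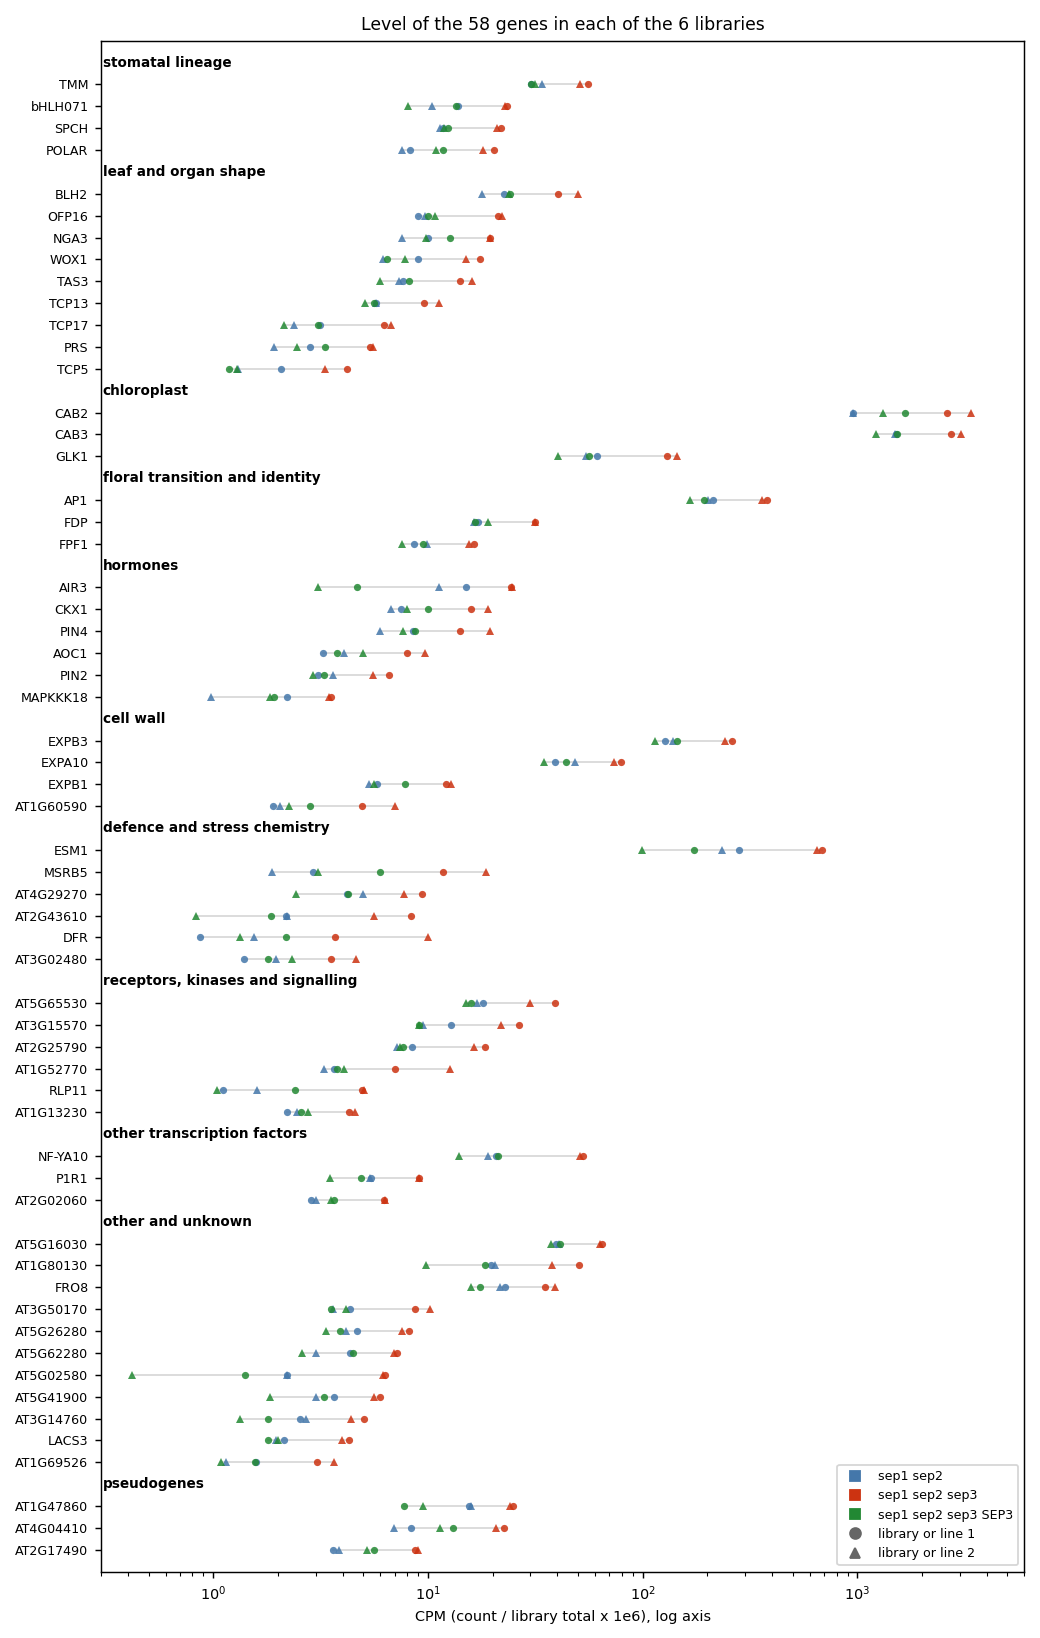
Each row is 1 of the 58 genes, grouped by role, with its level in CPM on a log axis in each of the 6 libraries (circle for library or line 1, triangle for library or line 2). The red points of *sep1 sep2 sep3* lie to the right of all others by the rule, and the other 2 genotypes overlap in most rows.

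Genes of the stomatal lineage formed a first group of 4. *SPCH*, the bHLH factor that starts the lineage, stood at 11.7 and 11.4 CPM in *sep1 sep2*, 21.8 and 20.9 CPM in the triple-labelled libraries, and 12.4 and 11.9 CPM in the *SEP3* lines. *TMM* (TOO MANY MOUTHS), a receptor-like protein that spaces stomata, measured 30.3 and 34.1, then 55.6 and 51.3, then 30.2 and 31.4 CPM in the same order. In both genes the *SEP3* lines fell into the range of *sep1 sep2* or within 1 CPM of it. *POLAR*, which marks one pole of the asymmetrically dividing lineage cells, gave 8.27 and 7.59 CPM in *sep1 sep2*, 20.4 and 18.0 CPM in *sep1 sep2 sep3*, and 11.8 and 10.9 CPM in the *SEP3* lines, where both values lay above both of *sep1 sep2*. The fourth gene, *bHLH071*, encodes a bHLH factor related to *SPCH*, and its triple-labelled libraries held 23.4 and 22.7 CPM against 8.04 to 13.9 CPM in the others. Among 10 genes listed for trichomes and stomata, *SPCH* and *TMM* met the rule, and all 8 with at least 2 CPM had their highest mean in *sep1 sep2 sep3*, 1.53 times *sep1 sep2* and 1.21 times the *SEP3* lines in the median. *SPCH* and *TMM* are among these 8, so the rule partly sets the count and the medians. The share of all genes with their highest mean there was not counted. Both *sep1 sep2 sep3* libraries were above the other 4 in 4 of these 8, or in 6 of 8 after TMM or RLE scaling of the library totals (TMM here is the trimmed-mean method of edgeR and not the gene). Among all genes with at least 2 CPM, 12.5% had both libraries on top. The size of the difference varied along the lineage. *MUTE*, which acts after *SPCH*, was at 3.13 and 3.72 CPM in *sep1 sep2 sep3* and 2.50 to 3.35 CPM elsewhere, an overlap. *FAMA*, the last bHLH factor of the series, was at 24.4 and 29.4 CPM against 18.4 to 24.1 CPM.

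The largest group with known functions was 9 regulators of leaf and organ shape. *TCP5*, *TCP13* and *TCP17* belong to the CIN-type TCP factors, which slow cell division and drive maturation in leaves and petals. *TCP17* was at 3.13 and 2.37 CPM in *sep1 sep2*, 6.25 and 6.73 CPM in *sep1 sep2 sep3*, and 3.07 and 2.12 CPM in the *SEP3* lines. *TCP13* followed with 5.70 and 5.71, 9.63 and 11.3, and 5.60 and 5.08 CPM, and *TCP5* with 2.06 and 1.31, 4.197 and 3.30, and 1.18 and 1.29 CPM. In the *SEP3* lines these 3 genes were at the level of *sep1 sep2* or under it. Of the 7 CIN-type TCP genes with at least 2 CPM, 6 had both *sep1 sep2 sep3* libraries highest, under each scaling tried, and the exception was *TCP24*. The 6 include the 3 chosen genes, which are on top by the rule. Among all genes with at least 2 CPM, 12.5% had both libraries highest. The 4 unchosen genes of these 7, *TCP2*, *TCP4*, *TCP10* and *TCP24*, each had both *SEP3* lines above both *sep1 sep2* libraries: *TCP10* measured 51.2 and 42.7, 99.7 and 126, and 85.0 and 67.1 CPM. The rule removed genes that stayed high in a *SEP3* line, so this contrast with the 3 chosen genes comes partly from the choice. The families and role groups were put together after the values had been seen.

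*WOX1* and *PRS* (*WOX3*) are homeobox genes that act together in the outgrowth of leaf blades and floral organs at their margins. *WOX1* was at 8.94 and 6.16 CPM in *sep1 sep2*, 17.4 and 15.1 CPM in *sep1 sep2 sep3*, and 6.46 and 7.79 CPM in the *SEP3* lines. *PRS*, less expressed, was at 2.81 and 1.92, 5.39 and 5.52, and 3.33 and 2.46 CPM. For *WOX1* the *SEP3* lines fell inside the range of *sep1 sep2*, and for *PRS* the ranges overlapped. *NGA3*, a B3-domain factor of leaf margins and of the style, gave 9.97 and 7.55, 19.5 and 19.4, and 12.7 and 9.75 CPM, while its relative *NGA4* had the opposite order, with 1.48 and 1.11 CPM in *sep1 sep2 sep3* and 2.08 to 5.98 CPM elsewhere. *BLH2* (*SAW1*), a BEL-type homeobox gene that restrains growth at leaf margins, stood at 22.6 and 17.9, 40.4 and 49.99, and 23.99 and 23.8 CPM. *OFP16*, of the OVATE family of repressors, stood at 9.02 and 9.71, 21.1 and 22.1, and 9.98 and 10.8 CPM, so that both *SEP3* lines were slightly above both *sep1 sep2* libraries. *TAS3* is the precursor of small RNAs that act against transcripts of auxin response factors such as *ARF3* and *ARF4*, and its values were 7.68 and 7.35, 14.1 and 16.0, and 8.12 and 5.96 CPM. Its targets did not follow a single order. *ARF3* was at 113 and 118 CPM in *sep1 sep2 sep3* and at 119 to 129 CPM elsewhere, whereas *ARF4* was at 118 and 127 CPM there and at 87.3 to 114 CPM elsewhere.

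Chloroplast genes included the most abundant members. *GLK1* (named *GPRI1* in the annotation), a transcription factor that switches on nuclear genes of photosynthesis, was at 61.4 and 54.5 CPM in *sep1 sep2*, 130 and 144 CPM in *sep1 sep2 sep3*, and 56.0 and 40.3 CPM in the *SEP3* lines. *CAB2* and *CAB3* encode chlorophyll-binding proteins of the main light-harvesting antenna. *CAB3* was at 1521 and 1498, 2719 and 3048, and 1522 and 1224 CPM, and *CAB2* at 954 and 956, 2613 and 3393, and 1669 and 1309.7 CPM. *CAB2* in the *SEP3* lines thus lay between the mutants, above both *sep1 sep2* libraries. *CAB1*, another close relative, had 7093 and 6602 CPM in *sep1 sep2 sep3*, against 6691 and 6378 CPM in *sep1 sep2*, so that these ranges overlapped (not after TMM or RLE scaling, which left both *sep1 sep2 sep3* libraries highest), and 4268 and 4244 CPM in the *SEP3* lines. The photosystem list of 24 genes, from which *CAB2* alone met the rule (*CAB3* was not on it), had both *sep1 sep2 sep3* libraries highest in 23 genes, and in all 24 after TMM or RLE scaling. Its median fold was only 1.26 over *sep1 sep2* and 1.6 over the *SEP3* lines. The share on top among all genes with at least 2 CPM was 12.5%. *GLK2* also had both triple-labelled libraries on top, at 27.9 and 39.0 CPM against 15.6 to 21.2 CPM.

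The 3 copies of CAB share much of their sequence, which bears on how reads can be assigned. Their coding regions have 804 bases each and are identical at 95.6% to 96.4% of positions. No exon window of 150 bases, the length of a read, from *CAB2* or *CAB3* had an exact match elsewhere in the genome, and the same held for 56 of the 58 genes. The mapping allowed mismatches, so this search does not show that reads of the CAB copies were kept apart. The 2 exceptions were *ESM1*, with 26.3% of its windows also found in an unannotated stretch that ends 330 bases before the gene, and the pseudogene AT1G47860, with 4.36%. The authors discarded reads that mapped to several places, so that the counts of these 2 leave out such reads.

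*AP1* led the genes of floral identity and transition. This MADS gene specifies floral meristems, sepals and petals, and its level was 214 and 201 CPM in *sep1 sep2*, 378 and 359 CPM in *sep1 sep2 sep3*, and 193 and 166 CPM in the *SEP3* lines. Both *SEP3* lines were below both *sep1 sep2* libraries. *CAL*, its closest relative, was at 8.35 and 4.29, 15.3 and 14.1, and 11.8 and 13.6 CPM, with both *SEP3* lines above both *sep1 sep2* libraries. *FUL*, the other gene of the clade, was at 71.1 and 70.3, 80.1 and 73.2, and 65.5 and 71.4 CPM. *FDP*, a bZIP gene close to *FD*, was at 17.0 and 16.4, 31.6 and 31.5, and 16.6 and 19.0 CPM. *FD* itself reached 18.4 and 21.1 CPM in *sep1 sep2 sep3* against 10.8 to 12.5 CPM in the other 4 libraries. *FPF1*, whose overexpression hastens flowering, had 16.5 and 15.5 CPM against 7.58 to 9.88 CPM. The other floral organ identity genes *AP3*, *PI* and *AG* did not have both *sep1 sep2 sep3* libraries on top. *PI* was lowest there, at 98.5 and 103 CPM against 131 to 172 CPM. *SEP4* was the other gene of the list of 5 floral MADS genes with both on top, at 40.3 and 44.7 CPM against 22.8 to 33.1 CPM.

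**Figure D2:**
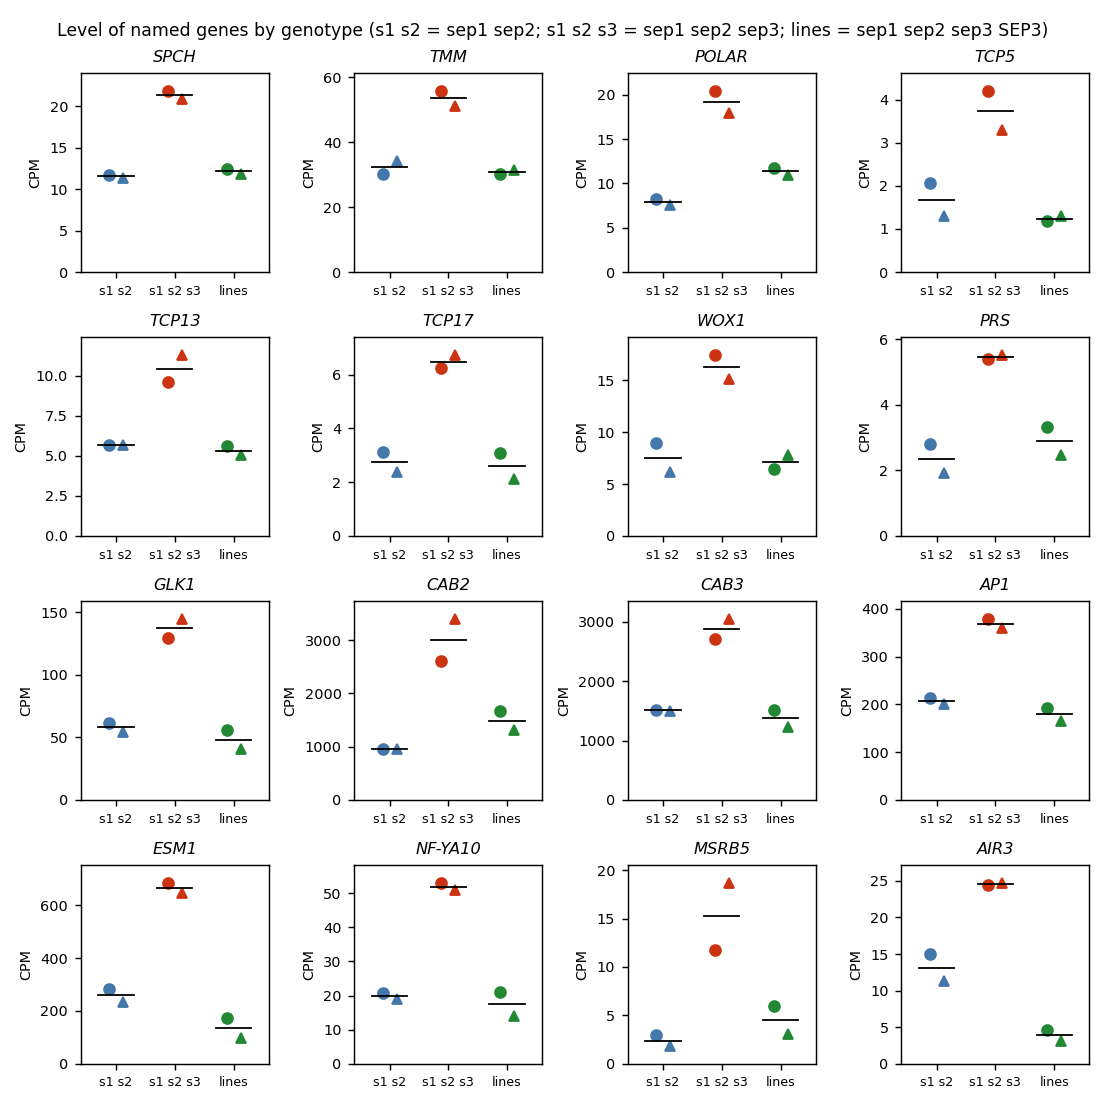
Each panel shows 1 of 16 named genes, with the level in CPM on an axis that starts at 0, the 2 libraries of each genotype as points and their mean as a line. The *SEP3* lines sit at the level of *sep1 sep2* for *SPCH*, between the mutants for *POLAR* and *CAB2*, and below *sep1 sep2* for *ESM1* and *AIR3*.

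Hormone genes among the 58 act in several pathways. *PIN2* and *PIN4* are auxin efflux carriers, and *AIR3* is a subtilisin-like protease first found as auxin-induced in root cultures. *PIN4* was at 8.55 and 5.96, 14.0 and 19.5, and 8.70 and 7.62 CPM, and *PIN2* at 3.09 and 3.59, 6.58 and 5.55, and 3.26 and 2.92 CPM. All 5 long PIN genes had both *sep1 sep2 sep3* libraries highest under each scaling, with a median fold of 1.83 over *sep1 sep2* and 1.82 over the *SEP3* lines. *PIN2* and *PIN4* are among these 5 and were on top by the rule. The share on top among all genes with at least 2 CPM was 12.5%. *AIR3* departed from the rest: 15.0 and 11.3 CPM in *sep1 sep2*, 24.4 and 24.7 CPM in *sep1 sep2 sep3*, and only 4.67 and 3.08 CPM in the *SEP3* lines. *CKX1* degrades cytokinins, and it was at 15.8 and 19.1 CPM in *sep1 sep2 sep3* against 6.73 to 10.0 CPM elsewhere. *AOC1*, an enzyme of jasmonate synthesis, was at 8.02 and 9.73 CPM against 3.25 to 4.96 CPM. Its relatives differed, since *AOC3* was highest in *sep1 sep2*, with 32.1 and 11.5 CPM against 5.31 to 7.16 CPM in the other 4 libraries. *MAPKKK18*, a kinase of abscisic acid signalling, was at 3.54 and 3.46 CPM against 0.980 to 2.22 CPM.

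Cell wall genes comprised 3 expansins, which loosen walls during growth, and AT1G60590, a pectin lyase-like gene. *EXPB3* stood at 127 and 139 CPM in *sep1 sep2*, 261 and 242 CPM in *sep1 sep2 sep3*, and 145 and 114 CPM in the *SEP3* lines. *EXPA10* gave 39.0 and 48.2, 79.2 and 73.5, and 43.7 and 34.5 CPM, and *EXPB1* gave 5.82 and 5.31, 12.1 and 12.8, and 7.80 and 5.58 CPM. In these 3 genes the *SEP3* lines overlapped *sep1 sep2*. Of 14 expansins with at least 2 CPM, 9 had both triple-labelled libraries highest, and the medians over the 14 were 1.3 and 1.33. The 9 include the 3 chosen by the rule, and the share on top among all genes with at least 2 CPM was 12.5%.

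The 6 genes of defence and stress chemistry had median folds of 2.88 over *sep1 sep2* and 3.64 over the *SEP3* lines. These folds come from values that the rule used, in a group put together after the values were seen, so their size carries no test. *ESM1*, a GDSL lipase-like protein that steers glucosinolate breakdown towards isothiocyanates, was at 282 and 235 CPM in *sep1 sep2*, 685 and 647 CPM in *sep1 sep2 sep3*, and 174 and 98.9 CPM in the *SEP3* lines. Here all 3 genotypes were separate, with the *SEP3* lines lowest. Only *ESM1* of the 23 genes of the myrosinase and glucosinolate list met the rule, and 6 of the 15 with at least 2 CPM had both *sep1 sep2 sep3* libraries highest, with medians of 1.15 and 1.13. Among all genes with at least 2 CPM, 12.5% had both libraries highest. *MSRB5*, a methionine sulfoxide reductase that repairs oxidised methionine, had the largest fold over *sep1 sep2* of all 58, 6.33, from 2.93 and 1.88 CPM to 11.8 and 18.7 CPM. In the *SEP3* lines it was at 5.95 and 3.08 CPM, above both *sep1 sep2* libraries. *DFR*, an enzyme of anthocyanin synthesis, was at 0.871 and 1.55, 3.70 and 9.99, and 2.18 and 1.33 CPM, and its *sep1 sep2 sep3* libraries differed by 2.70-fold, the widest gap of the 58. *LDOX*, the next enzyme of the path, was at 6.17 and 14.0 CPM in the same libraries, against 2.22 to 4.57 CPM elsewhere. AT2G43610, a chitinase family gene, had 8.31 and 5.62 CPM against 0.833 to 2.204 CPM, the second highest ratio at 2.55. AT3G02480, of the late embryogenesis abundant family, and AT4G29270, an acid phosphatase family gene, had folds of 2.44 and 1.87 over *sep1 sep2*.

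Of the remaining genes, AT5G02580 had the highest ratio, 2.80. It is annotated in RefSeq as argininosuccinate lyase, and it was at 2.22 and 2.204 CPM in *sep1 sep2*, 6.34 and 6.20 CPM in *sep1 sep2 sep3*, and 1.41 and 0.417 CPM in the *SEP3* lines. AT5G02580 alone of the 58 had a strict CArG box (CCWWWWWWGG, W being A or T) in the 250 bases before its start. MADS proteins bind this element, which occurred in 1.72% of the 58 and in 2.72% of all genes with at least 2 CPM. The box lies 16 bases before the start, counted to its first base, and is shown in capitals in the sequence (RefSeq annotation of TAIR10.1, plus strand, chr5:579494-579743), printed since it is the single match in the set.
AT5G02580 promoter: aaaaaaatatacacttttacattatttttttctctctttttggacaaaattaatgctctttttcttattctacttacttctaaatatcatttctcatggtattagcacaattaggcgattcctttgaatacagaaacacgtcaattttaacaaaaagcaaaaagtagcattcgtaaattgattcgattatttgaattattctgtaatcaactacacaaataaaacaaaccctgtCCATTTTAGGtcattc

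*NF-YA10*, a subunit of the NF-Y complex that binds CCAAT boxes, was at 20.7 and 19.1 CPM in *sep1 sep2*, 53.0 and 50.9 CPM in *sep1 sep2 sep3*, and 21.1 and 14.0 CPM in the *SEP3* lines, and its ratio of 2.42 was the third highest. *NF-YA10* was the only one of 10 NF-YA genes to meet the rule, while 5 of the 10, itself included, had both *sep1 sep2 sep3* libraries highest (7 after TMM or RLE scaling). Among all genes with at least 2 CPM this share was 12.5%. *RLP11*, a receptor-like protein, was at 1.11 and 1.59, 4.94 and 5.06, and 2.40 and 1.04 CPM. The receptor-like kinase AT2G25790 had 18.5 and 16.3 CPM against 7.18 to 8.47 CPM, with the other 4 libraries close together. AT3G50170, which encodes a DUF247 transmembrane protein, had 8.72 and 10.2 CPM against 3.52 to 4.35 CPM. AT1G52770 and AT3G15570 belong to the NPH3 family of phototropic signalling, with folds of 2.85 and 2.16 over *sep1 sep2*. *FRO8*, a ferric reductase, was at 22.8 and 21.6, 35.2 and 39.0, and 17.5 and 15.8 CPM, with both *SEP3* lines below both *sep1 sep2* libraries. The 3 pseudogenes were AT1G47860, AT2G17490 and AT4G04410, from 87 pseudogenes among the 17503 genes with at least 2 CPM that the annotation holds. AT4G04410 was at 8.35 and 6.94, 22.7 and 20.8, and 13.1 and 11.4 CPM, and AT1G47860 at 15.6 and 15.9, 24.9 and 24.2, and 7.74 and 9.50 CPM. Relative to *sep1 sep2*, the *SEP3* lines were thus higher for the first and lower for the second.

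At the threshold of 1.5 the genes just inside were *TMM*, AT3G02480 and AT1G47860. Just outside lay AT4G00480 (*ATMYC1*), a bHLH factor of the epidermis, with 36.8 and 38.3 CPM in *sep1 sep2 sep3* and 24.6 CPM in the highest other library, then AT1G62700 (*ANAC026*), a NAC factor, with 2.84 and 2.94 CPM against 1.90 CPM, and AT4G38950, a microtubule motor gene, with 128 and 131 CPM against 86.0 CPM. A weaker demand, that both triple-labelled libraries exceed the other 4 by any margin, was met by 2189 genes, or 12.5% of those with at least 2 CPM. The number of genes depended on single libraries. Without *sep1 sep2 sep3* library 1, 206 genes met the rule, without *SEP3* line 1, 133, without *sep1 sep2 sep3* library 2, 94, and without *sep1 sep2* library 1, 88, since fewer libraries then set the bound.

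**Figure D3:**
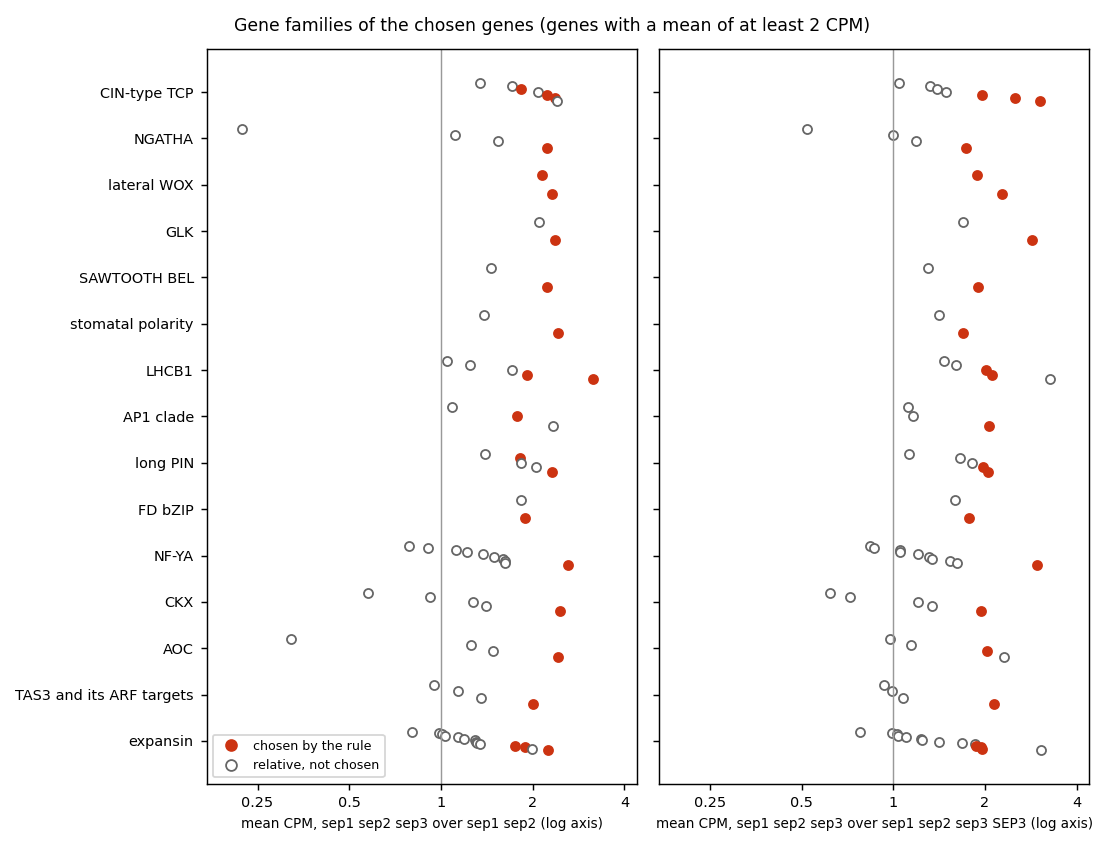
Families of the chosen genes, with the mean CPM of *sep1 sep2 sep3* divided by that of *sep1 sep2* (left) or of the *SEP3* lines (right) on log axes, 1 point per gene with a mean of at least 2 CPM, filled for the 58 chosen genes and open for their relatives. Most open points of the CIN-type TCP, long PIN and LHCB1 families also lie right of 1, while *NGA4* and *AOC3* lie left of 1 in the left panel.

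The comparison of the *SEP3* lines with *sep1 sep2* was the one that the rule left partly free, since it only set an upper bound for both groups. Genes that stayed high in a *SEP3* line were removed by the rule, so the comparison cannot show whether re-expressed *SEP3* lowered the genes. The bound also limits how far above *sep1 sep2* the lines can lie. What remains is a description of where the lines lay relative to *sep1 sep2* below that bound. By the quasi-likelihood test of edgeR, with a Benjamini-Hochberg FDR under 0.05 and a log2 fold change beyond 1, 93 of 25458 genes were higher in the *SEP3* lines (0.365%) and 290 were lower (1.14%). Of the 58 genes 0 were higher and 1 was lower, *AIR3*, with a log2 fold change of -1.81 (SE 0.20, FDR 0.00022). DESeq2 also called 0 higher and 1 lower, and at an unadjusted p under 0.05 edgeR placed 4 of the 58 genes higher (6.90%) and 9 lower (15.5%), against 7.68% and 9.45% of all genes tested. At the FDR alone, with no demand on the fold, 1.39% of all genes were higher and 2.73% lower. Then 2 of the 58 were higher, *CAB2* at 0.57 (SE 0.15, FDR 0.044) and the pseudogene AT4G04410 at 0.61 (SE 0.16, FDR 0.049). *CAB1*, the close relative of *CAB2* outside the 58, lay the other way in the same fit, at -0.69 (FDR 0.0040). Among the 58, 3 were lower, *AIR3*, *ESM1* at -0.99 (SE 0.19, FDR 0.0086) and the pseudogene AT1G47860 at -0.94 (SE 0.15, FDR 0.0031). Leaving out *SEP3* line 1 raised the count of lower genes from 1 to 4, and leaving out *sep1 sep2* library 2 or *SEP3* line 2 raised it to 2, each fit then assuming that a lone library varies like the others. The number of higher genes over all genes fell from 93 to 47 without *sep1 sep2* library 2, and that of lower genes from 290 to 115 without *sep1 sep2* library 1.

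For the other 53 genes no difference between the *SEP3* lines and *sep1 sep2* passed the test, which does not show that their levels are equal. The estimate was near 0 for *SPCH* (log2 fold change 0.01, SE 0.14) and *FDP* (0.02, SE 0.13). It was less certain for weakly expressed genes, such as *TCP17* (-0.14, SE 0.29) and *DFR* (0.48, SE 0.48). *AP1* (-0.28, SE 0.11, FDR 0.20), *GLK1* (-0.33, SE 0.14, FDR 0.23), *FRO8* (-0.48, SE 0.13, FDR 0.0503) and AT5G02580 (-1.30, SE 0.42, FDR 0.10) had estimates below 0 that did not pass. *POLAR* (0.45, SE 0.16, FDR 0.14) and *MSRB5* (0.85, SE 0.33, FDR 0.19) had estimates above 0 that did not pass either. The median log2 fold change of the 58 genes was -0.13, from -1.81 to 0.85, against -0.01 over all genes tested.

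**Figure D4:**
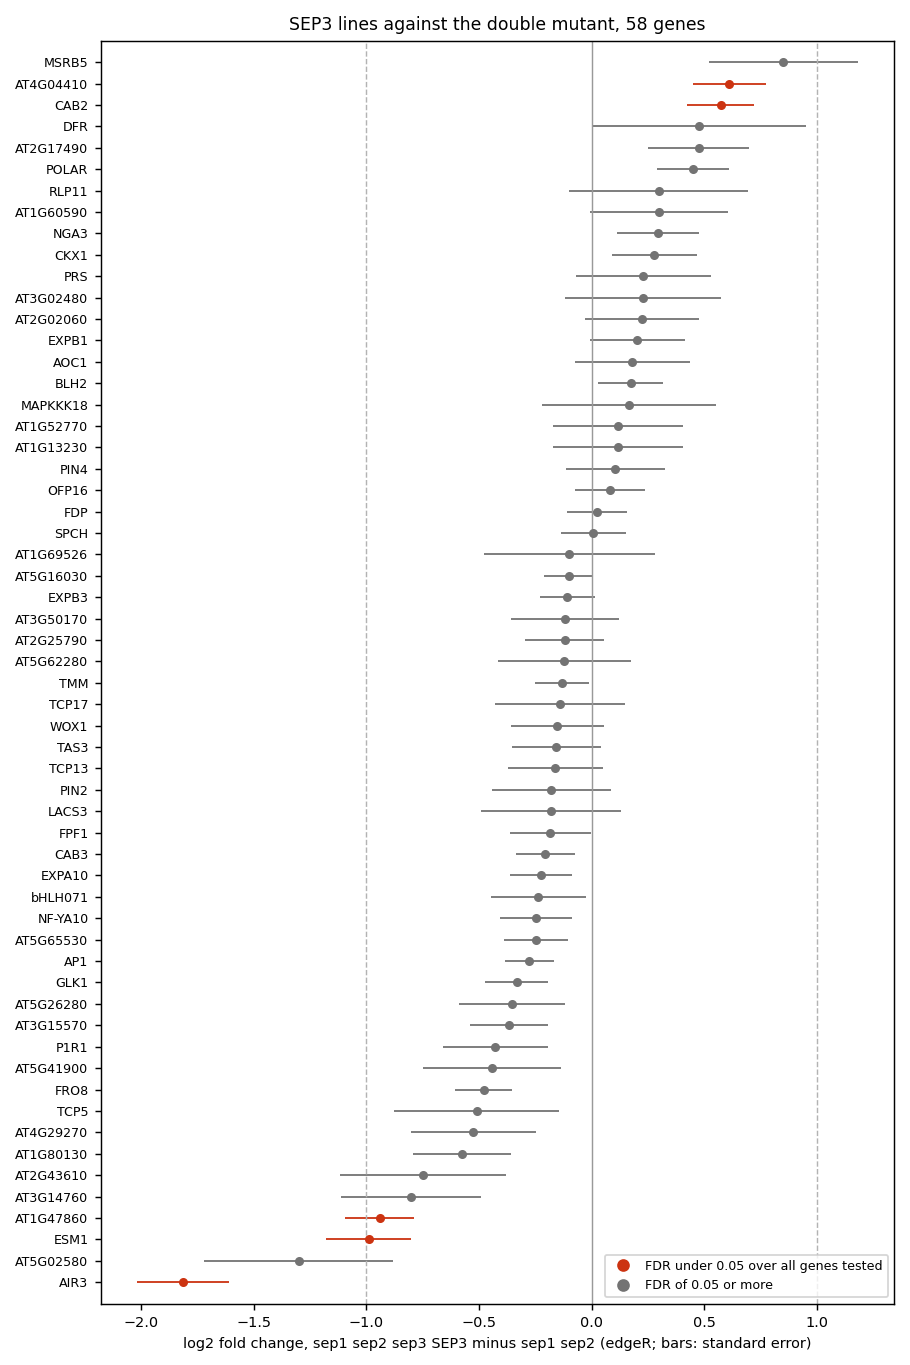
Log2 fold change of the *SEP3* lines minus *sep1 sep2* for each of the 58 genes from edgeR, with the standard error as a bar, a line at 0 and dashed lines at the threshold of 1 in both directions. The 5 red genes passed an FDR of 0.05, and of these *AIR3* alone also passed the fold threshold.

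The *SEP3* lines were not alike in these genes. Line 2 was below line 1 in 46 of the 58 (79.3%), whereas it was below line 1 in 49.5% of all genes with at least 2 CPM, and the median ratio of line 1 to line 2 was 1.21 against 0.998. Line 2 was the lowest of all 6 libraries in 29 of the 58 genes. The corresponding share of all genes with at least 2 CPM was 11.96%, where any of the 6 libraries can be lowest, which the rule prevents for the triple-labelled libraries. The widest differences between the lines were in AT5G02580, at 3.38-fold, and among the most abundant genes in *ESM1*, at 1.76-fold. *SEP3* itself and the summed tapetum markers were also lower in line 2, with 510 and 343 CPM for *SEP3* and 3064 and 1729 CPM for the markers, while *SEP2* was higher there, with 17.3 and 112.0 CPM. Their part in this was not tested. Both *SEP3* lines were below both *sep1 sep2* libraries in 15 of the 58 genes and above both in 13, shares of 25.9% and 22.4%, while over all genes with at least 2 CPM these shares were 19.2% and 34.9%.

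Other pathways were read from lists of genes, which had been chosen with earlier results of these data known. The flavonoid and anthocyanin list, from which *DFR* met the rule, had 3 of 5 genes with both *sep1 sep2 sep3* libraries highest (4 of 5 after TMM or RLE scaling) and medians of 1.94 over *sep1 sep2* and 2.29 over the *SEP3* lines. The list of methionine sulfoxide reductases had 2 of 5 on top, *MSRB5* among them, and that of meristem identity and flowering regulators 11 of 18, *AP1* among them, with medians of 1.12 and 1.14. Jasmonate genes, with *AOC1*, had 4 of 15 on top and medians of 0.817 and 1.1. Over all genes with at least 2 CPM, 12.5% had both *sep1 sep2 sep3* libraries on top. Of the lists without any of the 58 genes, meristem maintenance had 5 of 11 genes on top, sugar and starch response 3 of 8, salicylate response 1 of 2 and the circadian clock 1 of 11. Cold and touch genes had 0 of 12 on top and a median of 0.220 over *sep1 sep2*. Between the *SEP3* lines and *sep1 sep2*, edgeR called 12 of the 15 cold and touch genes lower (11 by DESeq2). It also called 4 of 17 jasmonate genes, 1 of 20 flowering regulators and 1 of 6 salicylate genes lower. Of 11 clock genes, 4 were called higher and 2 lower (1 and 0 by DESeq2). Over all genes tested, edgeR called 1.14% lower and 0.365% higher. In the photosystem list edgeR and DESeq2 called 0 of 24 genes with the fold threshold, and at an unadjusted p under 0.05 edgeR placed 18 of the 24 lower and 1 higher, against 9.45% and 7.68% of all genes tested. *AP1*, *CAB2*, *SPCH*, *TMM*, *ESM1*, *DFR*, *MSRB5* and *AOC1* were the 8 genes on these lists that met the rule.

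The 58 genes were spread over the genome, with 15, 12, 9, 6 and 16 on chromosomes 1 to 5. Within 1 Mb of *SEP1*, *SEP2* or *SEP3* lay 4 of them (6.90%), against 6.08% of all genes with at least 2 CPM. They were *EXPA10* near *SEP3*, *TCP13* and AT3G02480 near *SEP2*, and AT5G16030 near *SEP1*. Only 2 pairs lay within 20 kb of each other: *CAB2* and *CAB3*, 1154 bases apart, and AT1G80130 and *TMM*, 11263 bases apart. A gene on the other strand overlapped 6 of the 58 (AT1G69526, AT3G15570, *AIR3*, *CKX1*, AT5G16030 and *POLAR*). Overlap was taken over whole gene spans, introns included, and its share over all genes was not counted. The default parameters used for counting do not separate the strands, so reads in a stretch shared with a partner cannot be assigned by strand.

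Promoters were searched on both strands of the 250 bases before each start for 5 motifs. The strict CArG box (CCWWWWWWGG, W being A or T) was found in 1 of 58 promoters (1.72%). This form was in 2.72% of the 17501 promoters of genes with at least 2 CPM (2.61% of the 25368 promoters of all genes tested). Boxes that deviate from these letters, such as those the paper describes in the *KNU* promoter, and boxes further from the start were not searched. The G-box CACGTG, bound by bZIP and bHLH factors and part of many abscisic acid responsive promoters, was found in 5 (8.62%) against 7.41% of genes with at least 2 CPM, a share close to this background. The W-box (TTGACC or TTGACT), bound by WRKY factors, was in 12 (20.7%) against 27.1%, the DRE core CCGAC of cold and drought factors in 6 (10.3%) against 13.1%, and the evening element AAAATATCT of the clock in 0 against 2.58%. The G-box genes were *MSRB5*, *DFR*, *MAPKKK18*, AT4G29270 and AT3G02480. Stretches of 60 bases that hold the box, in capitals, are shown on the strand of the gene to compare the flanks (TAIR10.1).
MSRB5 (chr4:2445704-2445763, plus strand): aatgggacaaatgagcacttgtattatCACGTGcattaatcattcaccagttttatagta
DFR (chr5:17166033-17166092, minus strand): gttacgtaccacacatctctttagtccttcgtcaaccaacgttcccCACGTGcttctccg
MAPKKK18 (chr1:1469426-1469485, plus strand): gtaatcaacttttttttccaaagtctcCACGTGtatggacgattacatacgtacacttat
AT4G29270 (chr4:14424924-14424983, minus strand): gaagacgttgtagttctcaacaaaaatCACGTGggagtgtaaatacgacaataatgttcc
AT3G02480 (chr3:512157-512216, plus strand): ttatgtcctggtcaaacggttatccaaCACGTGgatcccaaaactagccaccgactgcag
In *MAPKKK18* the G-box lies 88 bases before the start and in *DFR* 14 bases before it, and the other 3 lie between. A match in such a window is a description of the letters and not a bound site.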

How the data were processed

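RNA of 6 libraries, 2 per genotype, was poly-A selected and sequenced as pairs of 150 bases. The authors mapped reads to TAIR10 with STAR without multimapping reads and counted them per gene with FeatureCount at default parameters. The versions are not given in the sources used here. The deposited values are whole-number counts without normalization. In each library 85.9 to 88.3% of low counts (1 to 20) were even numbers. The authors' 2 comparison tables, which hold log2 fold changes, log2 CPM, F statistics, p-values and FDR, were not used.

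The 58 genes and all gene lists were chosen with earlier results of these data known. CPM used library totals (24000063 to 31263376 counts). The *SEP3* lines were compared with *sep1 sep2* in edgeR 4.0.16 (limma 3.58.1, R 4.3.3), with TMM normalization and 1 fit of all 6 libraries over the 25458 genes with any count. DESeq2 1.42.0, RLE factors, filterByExpr, the fit of 4 libraries, a replicate block and leaving out libraries were alternatives. The script was tested on simulated data. Named were the genes with the 10 highest ratios or levels, list members, called genes, threshold and neighbouring genes; others, the families, the role groups and the genes set beside the members were chosen after their values were seen. All 58 IDs matched RefSeq (TAIR10.1), 3 after removal of a suffix. With 2 libraries per group, no sample could be examined as an outlier.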

Additional observations from a re-analysis of the deposited data

How the results depend on the processing

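The rule found 86 genes after TMM scaling and 82 after RLE scaling, each time with all 58 of the genes described. A ratio of at least 5 to 4 gave 283 genes and one of at least 2 gave 8. A mean of at least 1 or 5 CPM gave 76 or 40 genes, and leaving out the 3 pseudogenes, which was decided after seeing the data, gave 55. Without 1 library the rule found 69 to 206 genes, of which 56 to 58 were among the 58. In the comparison of the *SEP3* lines with *sep1 sep2*, the genes called higher over all genes were 49 with the filter on low counts, 355 at the FDR alone and 47 to 83 without 1 library. Those called lower were 115, 695 and 115 to 335. The causes of these shifts were not tested. Of the 58 genes, 0 were higher under each fit and 2 at the FDR alone, while 3 were lower at the FDR alone and 1 to 4 without 1 library. Their median log2 fold change stayed below 0, at -0.24 to -0.01 without 1 library, and moved by less than the spread between replicates (0.31). The main value of -0.13 was itself smaller in size than this spread, so its sign is not settled. *AIR3* passed both thresholds in all 11 alternative fits (FDR 1.3e-09 to 0.017), *ESM1* in 3, AT1G47860, AT5G02580 and AT1G80130 in 1 each, and the FDR of *CAB2* ranged from 0.0077 to 0.30 and that of AT4G04410 from 0.043 to 0.28.

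Same-numbered libraries did not deviate together (r of -0.09, -0.04 and 0.05 over 17514 genes), so the numbers were not taken as pairs. A replicate block gave 58 genes higher and 187 lower over all genes, and 2 of the 58 lower, *ESM1* having joined *AIR3*. Precision differed between genes: the log2 fold change had an SE of 0.48 in *DFR*, 1 of the 18 genes under 5 CPM, and of 0.13 in *FRO8*.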
